A study of Homo sapiens with 15 samples.

Results

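The genes described here supply the building blocks of RNA and DNA: the enzymes that make purine and pyrimidine nucleotides, reduce them to deoxynucleotides, recover bases and nucleosides, and feed carbon units into both pathways through serine and folate. They were taken as a list of 34 named genes. Of these, 33 were measured on a probe set that names 1 gene, among 19775 genes measured in all. UCK2, a uridine and cytidine kinase, is carried by 2 probe sets that also name another gene, and it was left unmeasured.

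RNA came from the established human ovarian cancer line PEO1, kept in RPMI-1640 medium with fetal bovine serum. The cells were stained for the surface proteins CD90 and CD133 and sorted into CD90+/CD133+, CD90+/CD133- and CD90-/CD133- fractions, with 5 arrays for each fraction and 15 in all. No fraction was treated, and all derive from 1 cell line, so the fractions stand for subpopulations of that line in culture. The study set CD90+/CD133- cells, its stem-like fraction, against CD90-/CD133- cells to find genes that differ between them, and the CD90+/CD133+ fraction was set here beside both. The design text speaks of triplicate cultures, whereas the titles number 5 replicates in each fraction, and replicates 4 and 5 share a code in the labels. The methods call the arrays of the CD90+/CD133- and CD90-/CD133- fractions biological replicates. For the CD90+/CD133+ arrays no such statement was found, so p-values that involve them measure the spread between these arrays, which may be technical in part.

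A purine ring is assembled step by step on activated ribose, with PPAT taking the committed step, and ends in IMP, from which AMP and GMP are made. A pyrimidine ring is made first by CAD and DHODH and joined to the ribose by UMPS. Ribonucleotide reductase, built from RRM1 and RRM2, turns ribonucleotides into deoxynucleotides, and thymidylate synthase (TYMS) makes the thymidine form with a carbon unit carried by folate. Proliferating cells, tumour cells among them, are known to draw on these routes, and salvage enzymes such as HPRT1 and APRT spare the cost of building the ring anew.

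The values are linear array intensities as the authors normalized them. Those under 16 were set to 16, log2 was taken, and limma was fitted to the arrays of 2 fractions at a time. A gene was called higher or lower at a Benjamini-Hochberg adjusted p under 0.05 over all 19775 genes. The arrays had medians between 29.4 and 32.4, and any pair correlated at 0.956 to 0.997. THY1, which encodes CD90, lay between 728 and 2171 on CD90+/CD133+ arrays, 795 and 1221 on CD90+/CD133- arrays and 57.8 and 101 on CD90-/CD133- arrays. PROM1, which encodes CD133, lay between 429 and 1652 on CD90+/CD133+ arrays, 21.5 and 156 on CD90+/CD133- arrays and 9.32 and 44.1 on CD90-/CD133- arrays. Epithelial EPCAM was at 5310.1 or more on every array, while PTPRC of leukocytes and LUM and COL3A1 of fibroblasts were under 16 on all 15 arrays. Of 10 epithelial markers, 1 was higher and 2 lower on CD90+/CD133- than on CD90-/CD133- arrays: EPCAM (log2 fold change 0.33, limma adjusted p = 0.00324), KRT8 (-0.98, adjusted p = 0.000699) and KRT18 (-0.60, adjusted p = 4.2e-05). The list had a median of -0.07, and of all genes 9.08% were higher and 9.88% lower in this comparison. Of 8 fibroblast markers FAP was called (-2.02), and of 4 leukocyte markers CD14 (0.96). FAP and CD14 were thus above 16 on some arrays, so not every marker of these cell types was at the floor. The 3′ over 5′ gap of the GAPDH control probes, a sign of RNA quality, was 0.186 ± 0.0789 on the log2 scale on CD90+/CD133- arrays and 0.0565 ± 0.0317 on CD90-/CD133- arrays (SD, n = 5 each, exact permutation p = 0.0159, adjusted over 6 tests 0.0714). On CD90+/CD133+ arrays it was 0.0498 ± 0.0408 (SD, n = 5), which gave an exact permutation p of 0.833 against CD90-/CD133- arrays and 0.0238 against CD90+/CD133- arrays (adjusted 0.0714). The ACTB control probes had wider gaps: 2.46 ± 0.564 on CD90+/CD133-, 1.84 ± 0.322 on CD90-/CD133- and 1.70 ± 0.662 on CD90+/CD133+ arrays (SD, n = 5 each). For ACTB, CD90+/CD133- arrays gave an exact permutation p of 0.0714 against CD90-/CD133- and 0.0952 against CD90+/CD133+ arrays (adjusted 0.143 for each). The part of these gaps in the results was not tested.

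CD90+/CD133- replicate 5 stood apart. All 21 genes of a list of S phase and proliferation genes were below their mean over the 15 arrays on it, by a median of -0.67 on the log2 scale, while the medians of the other 14 arrays lay between -0.17 and 0.26. RRM1, RRM2, TYMS and TK1 had their lowest values of all 15 arrays there. PFAS and UMPS also had their lowest there, and MTHFD2, SHMT2, PSPH and PPAT their highest. Several results, though not all, are given with and without this array.

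**Figure D1:**
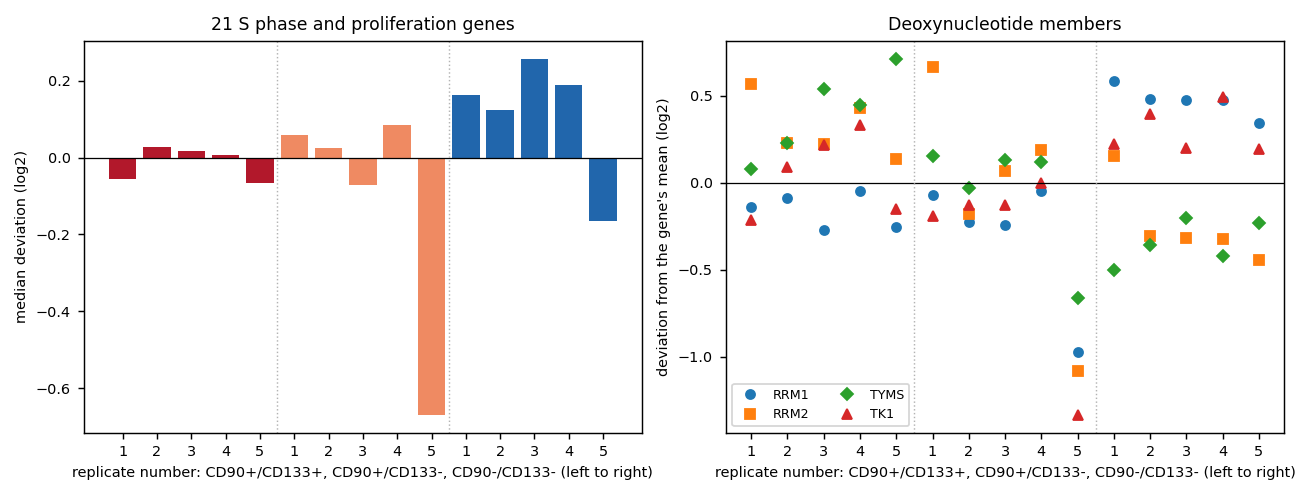
Left, the median over 21 S phase and proliferation genes of each gene's log2 deviation from its mean over 15 arrays, as a bar for each array. Right, the deviation of RRM1, RRM2, TYMS and TK1 on the same arrays. CD90+/CD133- replicate 5 is at -0.67 on the left and lowest for the 4 genes on the right.

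Set against CD90-/CD133- cells, 8 of the 33 members were higher and 3 were lower in CD90+/CD133- cells. The purine salvage enzymes HPRT1 and APRT rose, as did PPAT and PAICS of purine synthesis, IMPDH2 of GMP synthesis, the deoxycytidine kinase DCK, and the folate enzymes SHMT2 and MTHFD1. ADA, RRM1 and PRPS2 fell. The called members made up 33.3% of the list, against 19% of all 19775 genes (9.08% higher and 9.88% lower). Nearly all members are bright. Among genes with a mean log2 intensity of at least 6, the share called was 35.5% of 31 members and 31.3% of all such genes, so the members were called about as often as other bright genes. By direction, 25.8% of the bright members were higher and 9.68% lower, against 15.7% and 15.6% of all bright genes. With the replicate number as a block, 7 members were higher and 7 lower, where 25.6% of all genes were called (12% higher and 13.6% lower). The 5 arrays of each fraction did not overlap for 7 higher and 4 lower members, a pattern found in 7.72% and 8.26% of all genes.

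The CD90+/CD133+ cells had 10 members higher and 6 lower than CD90-/CD133- cells. TYMS and RRM2 were now among the higher genes, and GMPS, GART and PSPH among the lower. The share called was 48.5% of the members, against 20.4% of all genes (9.57% higher and 10.8% lower), and 51.6% of the 31 bright members against 33.01% of all bright genes, of which 16.5% were higher and 16.5% lower. The block gave 11 higher and 10 lower members, with 28.2% of all genes called (13% higher and 15.2% lower). Arrays did not overlap for 7 higher and 6 lower members, and for 8.07% and 8.78% of all genes. Both comparisons use the same CD90-/CD133- arrays, so their calls are not independent. The median log2 fold change over the members was 0.07 for the CD90+/CD133+ fraction and -0.03 for the CD90+/CD133- fraction, with 0 over all genes in each comparison.

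Between CD90+/CD133+ and CD90+/CD133- cells no member passed the test with limma. That comparison called 10 of 19775 genes, 0.0506% (0.0152% higher and 0.0354% lower), or 0.0961% with the block, which also called no member. PROM1, the gene of the sort marker, had an adjusted p of 0.0703 at a log2 fold change of 4.38 in the same comparison. Without adjustment, 2 of the 33 members had an unadjusted limma p under 0.05, as had 11.9% of all genes. The methods' t-test on the same values had 1 member higher (TYMS) and 1 lower (GMPS) at an unadjusted p under 0.05 and none after adjustment. The log2 fold changes of the 33 members lay between -0.35 and 0.46. Arrays of the 2 fractions did not overlap for 1 member, GMPS, which was lower, and for 1.68% of all genes higher and 1.42% lower.

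**Figure D2:**
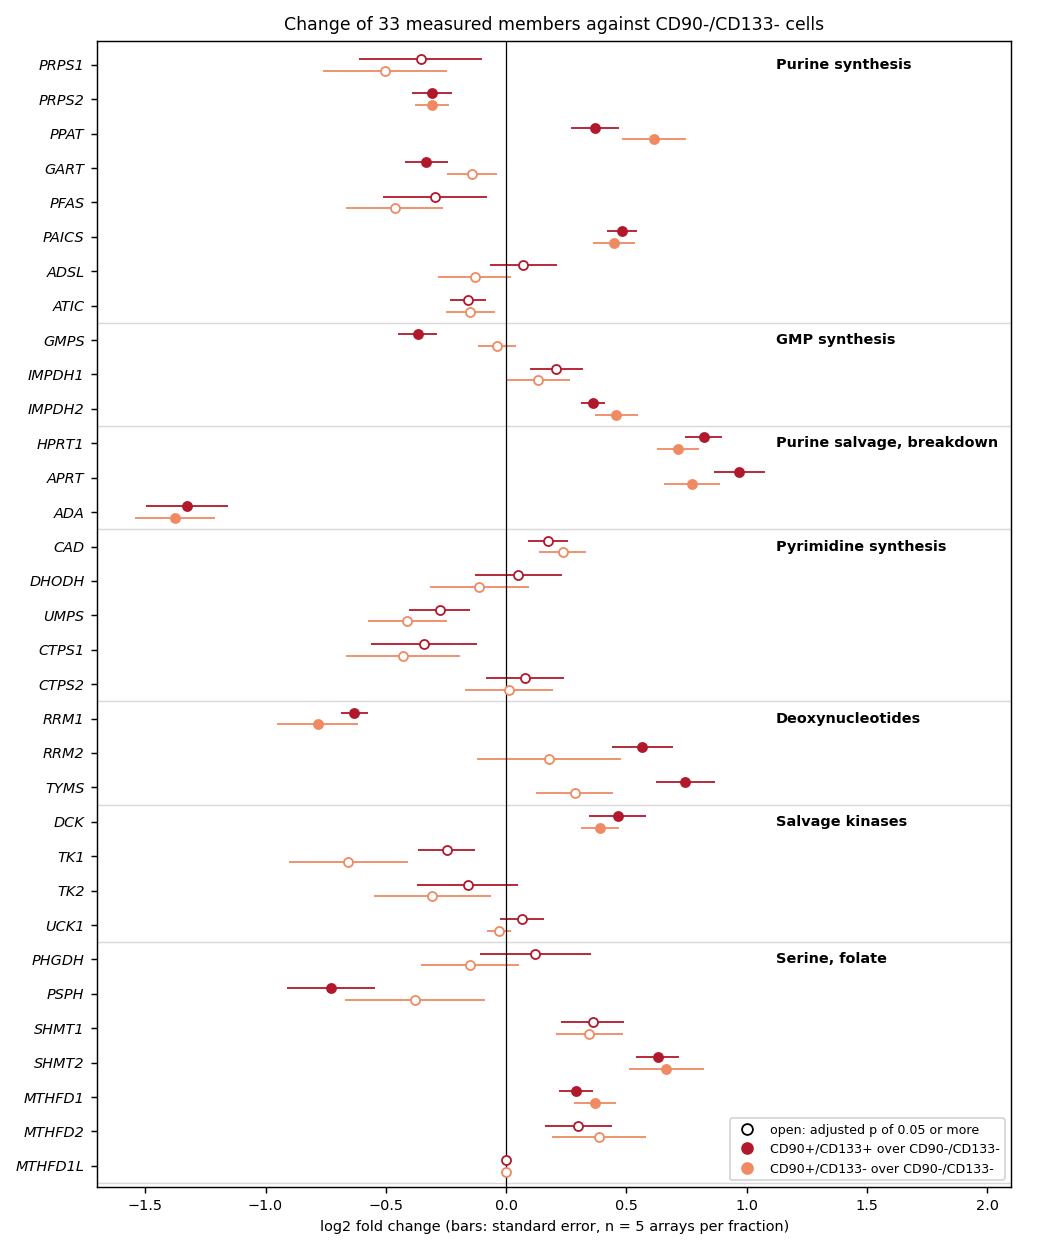
Log2 fold change of 33 members, grouped by role, in CD90+/CD133+ (dark) and CD90+/CD133- cells (light) over CD90-/CD133- cells, with bars for the standard error (n = 5 arrays per fraction). Filled points passed an adjusted p of 0.05. ADA is farthest to the left, at -1.33 (dark) and -1.38 (light), and APRT farthest to the right, at 0.97 (dark) and 0.77 (light).

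Both phosphoribosyltransferases of purine salvage were higher. HPRT1, which returns hypoxanthine and guanine to IMP and GMP, was at 4987, 5182, 4610.1, 4785 and 5134 on the CD90+/CD133+ arrays of replicates 1 to 5 (the order of all lists of 5 values), 4986, 4826, 4531, 4582 and 4041 on the CD90+/CD133- arrays and 3205, 2689, 3072, 2470.3 and 2598 on the CD90-/CD133- arrays. Every CD90+ array lay above every CD90- array. The log2 fold change was 0.82 (SE 0.0766, limma adjusted p = 0.000178) in CD90+/CD133+ and 0.71 (SE 0.0863, adjusted p = 0.000803) in CD90+/CD133- cells. APRT, which does the same for adenine, was at 722, 642, 580.3, 529 and 549 in CD90+/CD133+ cells, 634, 593, 452, 482 and 480.3 in CD90+/CD133- cells and 269, 308, 299, 299 and 367 in CD90-/CD133- cells. These groups did not overlap either, with log2 fold changes of 0.97 for the CD90+/CD133+ fraction (SE 0.106, limma adjusted p = 0.000404) and 0.77 for the CD90+/CD133- fraction (SE 0.117, adjusted p = 0.00243).

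ADA, the deaminase that removes adenosine and deoxyadenosine, moved the other way and by more than any other member. It was at 52.8, 80.2, 80.9, 71.9 and 107 in CD90+/CD133+ cells, 55.7, 86.4, 77.6, 59.7 and 99.3 in CD90+/CD133- cells and 171, 220.3, 182, 194 and 196 in CD90-/CD133- cells. The lowest CD90- array was thus well above the highest CD90+ array. ADA was 2.51-fold lower in CD90+/CD133+ cells (log2 fold change -1.33, SE 0.170, limma adjusted p = 0.0009) and 2.60-fold lower in CD90+/CD133- cells (-1.38, SE 0.165, adjusted p = 0.000768). Whether a lower value means fewer cells with the transcript or less transcript in each cell cannot be told apart in bulk RNA, here and below. HPRT1, APRT and ADA kept their calls in both comparisons with any array, or any number from 1 to 5, left out.

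Purine synthesis divided between its steps. PPAT, the amidotransferase of the committed step, was at 913, 953, 911, 891 and 1086 in CD90+/CD133+ cells, 1325, 1038, 1031, 938 and 1351 in CD90+/CD133- cells and 836, 619, 791, 648 and 802 in CD90-/CD133- cells. All CD90+ arrays were above all CD90- arrays, and CD90+/CD133- replicates 1 and 5 were the highest. PPAT had a log2 fold change of 0.37 (SE 0.0995, limma adjusted p = 0.0309) in CD90+/CD133+ and 0.62 (SE 0.134, adjusted p = 0.0135) in CD90+/CD133- cells. PAICS, which carries out a pair of later steps in 1 protein, was at 4879, 5020.3, 4929, 4612 and 4554 in CD90+/CD133+ cells, 5037, 4997, 4578, 4952 and 3967 in CD90+/CD133- cells and 3955, 3230.0, 3576, 3164 and 3308 in CD90-/CD133- cells. CD90+/CD133- replicate 5 was the lowest CD90+ array, just above the highest CD90- array. The log2 fold change was 0.48 for the CD90+/CD133+ fraction (SE 0.0634, limma adjusted p = 0.00103) and 0.45 for the CD90+/CD133- fraction (SE 0.0855, adjusted p = 0.00729), where PAICS lost its call when all its probe sets were averaged (0.34, adjusted p = 0.118). PPAT lost its call in CD90+/CD133+ cells without any 1 of 5 arrays (CD90+/CD133+ replicates 2, 3 and 5, CD90-/CD133- replicates 2 and 4), with adjusted p of 0.0544 to 0.0701, and with the label code as a block (0.0679).

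The other steps did not rise. PRPS2, which makes the activated ribose, was at 1003, 1009, 823, 848 and 1062 in CD90+/CD133+ cells, 1052, 868, 881, 1005 and 926 in CD90+/CD133- cells and 1174, 1101, 1203, 1082 and 1296 in CD90-/CD133- cells. Every CD90+ array was below the CD90- arrays, with a log2 fold change of -0.31 for the CD90+/CD133+ fraction (SE 0.085, limma adjusted p = 0.0343) and -0.31 for the CD90+/CD133- fraction (SE 0.0693, adjusted p = 0.0157). This call was lost in CD90+/CD133+ cells without any 1 of 6 arrays, CD90+/CD133+ replicates 3 and 4 and CD90-/CD133- replicates 1, 2, 3 and 5 (adjusted p of 0.0509 to 0.0762), and with the label code as a block (0.0829). PFAS, the next amidotransferase, was at 398, 279, 255, 219 and 234 in CD90+/CD133+ cells, 329, 258, 209, 232 and 197 in CD90+/CD133- cells and 509, 299, 333, 293 and 271 in CD90-/CD133- cells. Replicate 1 was highest in each fraction and the fractions overlapped, yet each CD90+ array was below the CD90- array of its number. PFAS passed with the replicate number as a block and not without it, at -0.30 for the CD90+/CD133+ fraction (limma adjusted p = 0.0234, without the block 0.444) and -0.46 for the CD90+/CD133- fraction (0.0208, without the block 0.167). PRPS1, the sister gene of PRPS2, also passed with the block alone, at -0.36 for the CD90+/CD133+ fraction (adjusted p = 0.0441, without the block 0.436) and -0.50 for the CD90+/CD133- fraction (0.0177, without the block 0.248). GART, a trifunctional enzyme of the pathway, had lowest, median and highest values of 367, 402 and 436 in CD90+/CD133+ cells, 402, 451 and 519 in CD90+/CD133- cells and 442, 508 and 607 in CD90-/CD133- cells. Its log2 fold change of -0.33 passed in CD90+/CD133+ cells (limma adjusted p = 0.03) and that of -0.14 did not in CD90+/CD133- cells (adjusted p = 0.467). The GART call was lost without any 1 of 5 arrays, CD90+/CD133+ replicates 3, 4 and 5 and CD90-/CD133- replicates 2 and 5 (adjusted p of 0.0633 to 0.0699). ADSL and ATIC, of the last steps, had log2 fold changes between -0.16 and 0.07 and passed in neither comparison.

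Of the GMP branch, IMPDH2, the dehydrogenase that opens it, was at 3152, 3602, 3678, 3564 and 3598 in CD90+/CD133+ cells, 3336, 4254, 3186, 4003 and 4143 in CD90+/CD133- cells and 2639, 2563, 2889, 2734 and 2869 in CD90-/CD133- cells. All 10 CD90+ arrays were above the CD90- arrays, by log2 fold changes of 0.36 for the CD90+/CD133+ fraction (SE 0.0507, limma adjusted p = 0.00143) and 0.46 for the CD90+/CD133- fraction (SE 0.0894, adjusted p = 0.00815). Its sister gene IMPDH1 had 0.21 for the CD90+/CD133+ fraction (adjusted p = 0.26) and 0.13 for the CD90+/CD133- fraction (0.633). GMPS, which completes GMP, was at 1524, 1557, 1422, 1475 and 1363 in CD90+/CD133+ cells, 1774, 1907, 1788, 1981 and 1778 in CD90+/CD133- cells and 1918, 1724, 2284, 1729 and 1861 in CD90-/CD133- cells. The CD90+/CD133+ arrays were below all others, and the CD90+/CD133- arrays lay within the range of the CD90- arrays. Relative to CD90-/CD133- cells, GMPS was lower in the CD90+/CD133+ fraction (log2 fold change -0.37, SE 0.0795, limma adjusted p = 0.0118). Against CD90+/CD133- cells it had the smallest adjusted p of the members in that comparison, 0.0703, at -0.33 (SE 0.046). The mean of its probe sets, however, moved by -0.08 in CD90+/CD133+ against CD90-/CD133- cells (adjusted p = 0.73), and 1 of its other probe sets had the opposite sign.

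**Figure D3:**
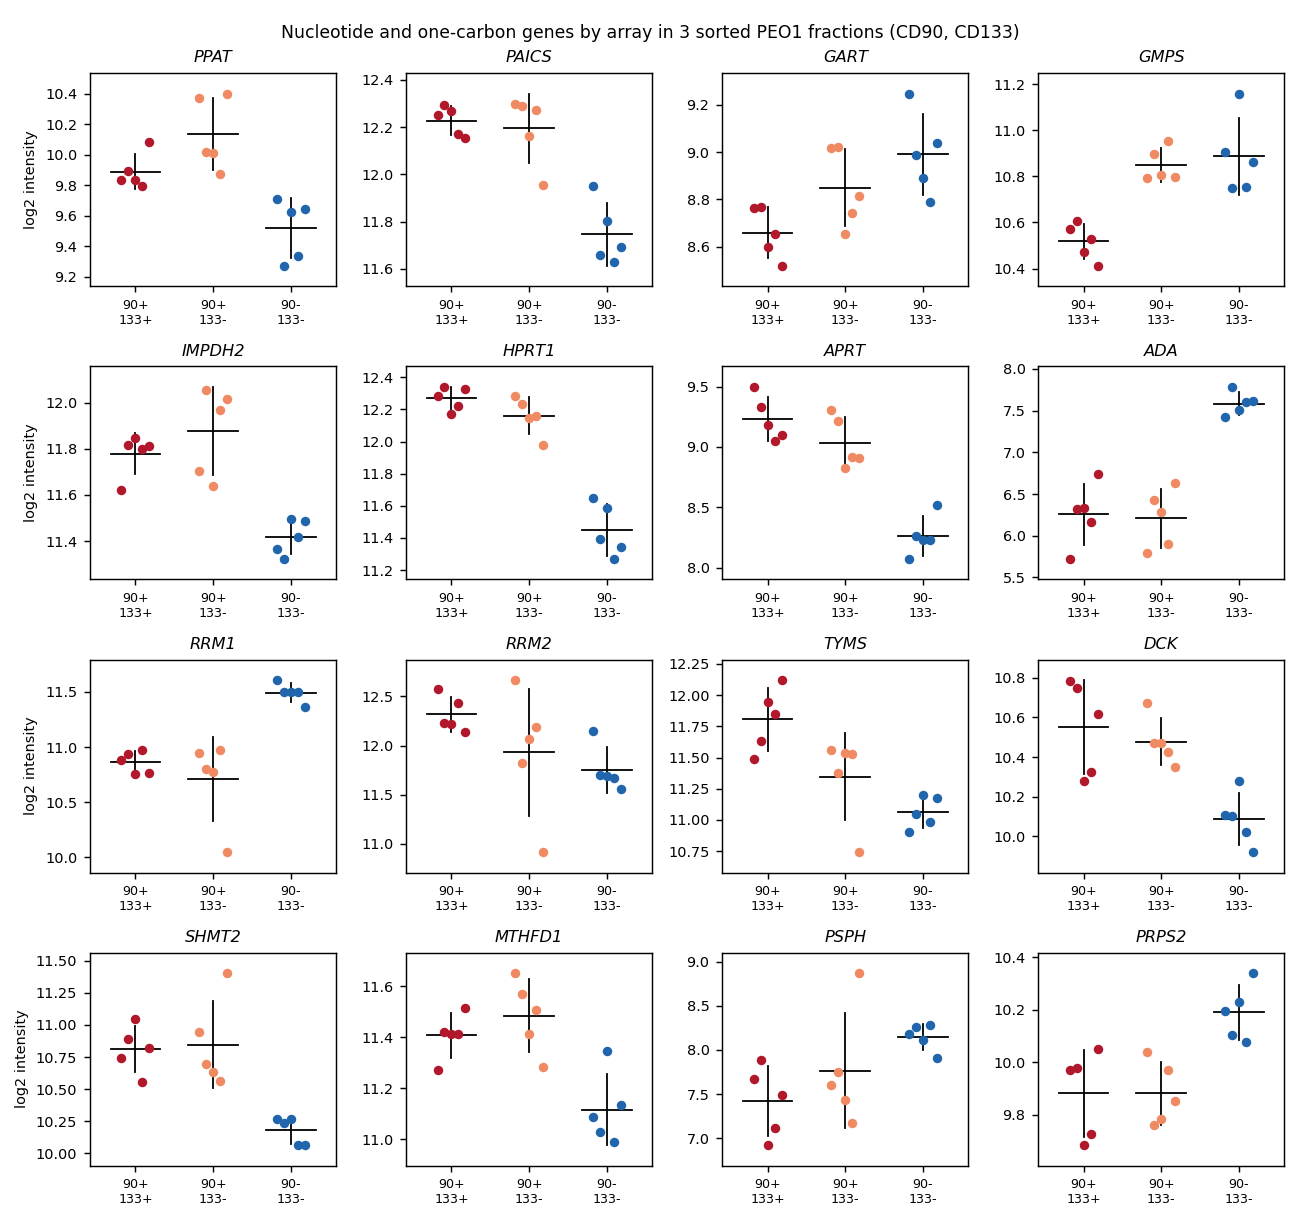
Log2 intensity of 16 members on each array (points, replicates 1 to 5 from left to right in each fraction), with the mean and SD of the 5 arrays as lines. Fractions run CD90+/CD133+, CD90+/CD133- and CD90-/CD133- from left to right, and each panel has its own vertical scale, which does not start at 0. HPRT1, APRT, ADA and RRM1 separate both CD90+ fractions from CD90-/CD133- cells, and GMPS separates CD90+/CD133+ cells from the others.

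On the probe sets used, the subunits of ribonucleotide reductase moved apart in CD90+/CD133+ cells. RRM1, the large subunit, was at 1886, 1961, 1726, 2009 and 1744 in CD90+/CD133+ cells, 1978, 1782, 1756, 2012 and 1060.3 in CD90+/CD133- cells and 3119, 2898, 2892, 2889 and 2636 in CD90-/CD133- cells. Every CD90+ array was below every CD90- array. RRM1 had a log2 fold change of -0.63 (SE 0.057, limma adjusted p = 0.000152) in CD90+/CD133+ and -0.78 (SE 0.169, adjusted p = 0.0131) in CD90+/CD133- cells, and -0.62 (adjusted p = 0.000648) without CD90+/CD133- replicate 5. RRM2, the small subunit that rises in S phase, was at 6081, 4794, 4772, 5527 and 4505 in CD90+/CD133+ cells, 6492, 3612, 4287, 4659 and 1935 in CD90+/CD133- cells and 4549, 3317, 3294, 3268 and 3006 in CD90-/CD133- cells. Its highest and lowest values were both CD90+/CD133- arrays. RRM2 was higher in CD90+/CD133+ cells by 0.57 (SE 0.127, limma adjusted p = 0.0141), and its change of 0.18 in CD90+/CD133- cells did not pass (adjusted p = 0.869, or 0.43 with adjusted p = 0.173 without replicate 5 of that fraction). With all 3 fractions in 1 fit the RRM2 call in CD90+/CD133+ cells was lost (adjusted p = 0.153). Another bright probe set of RRM2 passed in neither fraction. It was at 0.50 in the CD90+/CD133+ fraction (limma adjusted p = 0.096 over all single-gene probe sets) and -0.06 in the CD90+/CD133- fraction. RRM2B, the p53-inducible small subunit and not a member, changed by 0.23 in the CD90+/CD133+ fraction (adjusted p = 0.311) and 0.18 in the CD90+/CD133- fraction (0.585).

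TYMS was at 2868, 3178, 3947, 3694 and 4450.1 in CD90+/CD133+ cells, 3017, 2661, 2966, 2947 and 1715 in CD90+/CD133- cells and 1914, 2121, 2354, 2023 and 2308 in CD90-/CD133- cells. All CD90+/CD133+ arrays were above the CD90-/CD133- arrays, and so were the CD90+/CD133- arrays other than replicate 5. The log2 fold change was 0.75 (SE 0.122, limma adjusted p = 0.00319) in CD90+/CD133+ cells. It was 0.29 in CD90+/CD133- cells (adjusted p = 0.296), and 0.44 (adjusted p = 0.00503) without replicate 5 of that fraction. Another bright probe set of TYMS was at 0.92 in the CD90+/CD133+ fraction (limma adjusted p = 0.00466 over all single-gene probe sets) and had the opposite sign, -0.09, in the CD90+/CD133- fraction (0.991). The difference of 0.46 between CD90+/CD133+ and CD90+/CD133- cells did not pass (SE 0.186, adjusted p = 0.373), nor did that of 1.01 on the other probe set (0.134), so the CD90+ fractions are not shown to differ in TYMS.

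The S phase and proliferation list, set beside these genes, did not rise as a whole. Of its 21 measured genes, 0 were higher in CD90+/CD133- cells and 4 lower, CCNE1 (-1.01), PCNA (-0.43), MCM6 (-0.41) and MCM2 (-0.37), with a median of -0.34 against 0 over all genes; without replicate 5 of that fraction, 3 were higher and 2 lower, with a median of -0.20. The CD90+/CD133+ fraction had 3 higher, among them CDK1 (1.04) and BUB1 (0.83), and 6 lower, among them CCNE1 (-0.9996) and MCM5 (-0.61). Of all genes, 9.08% were higher and 9.88% lower in CD90+/CD133- cells, and 9.57% and 10.8% in CD90+/CD133+ cells. These shares come from the fits to all arrays and do not apply to the counts without replicate 5. The part of the S phase list in the values of RRM2, TYMS and TK1 was not tested.

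The salvage kinases of nucleosides differed from each other. DCK, which phosphorylates deoxycytidine and many nucleoside drugs, was at 1765, 1721, 1242, 1284 and 1571 in CD90+/CD133+ cells, 1633, 1417, 1418, 1375 and 1306 in CD90+/CD133- cells and 1102, 1101, 1244, 1039 and 969.7 in CD90-/CD133- cells. The CD90+/CD133- arrays did not overlap with the CD90- arrays, whereas 1 CD90+/CD133+ array, replicate 3, fell just below the highest of them. The log2 fold change was 0.46 (SE 0.118, limma adjusted p = 0.0242) in CD90+/CD133+ cells, a call lost with the replicate number as a block (adjusted p = 0.0632), and 0.39 (SE 0.0776, adjusted p = 0.00886) in CD90+/CD133- cells. The DCK call in CD90+/CD133+ cells was also lost without any 1 of 5 arrays, CD90+/CD133+ replicates 2 and 5 and CD90-/CD133- replicates 2, 4 and 5 (adjusted p of 0.0517 to 0.0583). TK1, the thymidine kinase of dividing cells, ran from 1398 to 2042 in CD90+/CD133+, 644 to 1622 in CD90+/CD133- and 1856 to 2281 in CD90-/CD133- cells. Its change of -0.66 in CD90+/CD133- cells did not pass (adjusted p = 0.109), but without replicate 5 of that fraction it was smaller and passed (-0.41, adjusted p = 0.00801), as did the full change among bright genes alone (0.038) and with all 3 fractions in 1 fit (0.0492). Another bright probe set of TK1 was at -0.81 in the CD90+/CD133- fraction (limma adjusted p = 0.0472 over all single-gene probe sets). In the CD90+/CD133+ fraction that probe set was at -0.23 (0.546). TK2, the mitochondrial thymidine kinase, ran from 57.0 to 92.1 in CD90+/CD133+, 50.2 to 102 in CD90+/CD133- and 57.4 to 117 in CD90-/CD133- cells. It was lower in CD90+/CD133- cells with the replicate number as a block (-0.31, limma adjusted p = 0.017) and did not pass without it (0.509). Without replicate 5, the highest of its fraction at 102, TK2 was at -0.49 (adjusted p = 0.133). UCK1, a uridine and cytidine kinase, changed by 0.06 in the CD90+/CD133+ fraction (adjusted p = 0.794) and -0.03 in the CD90+/CD133- fraction (0.89).

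Pyrimidine synthesis held no called member without the block. CAD, which joins the first 3 steps in 1 protein, ran from 341 to 413 in CD90+/CD133+, 355 to 454 in CD90+/CD133- and 271 to 364 in CD90-/CD133- cells. Its log2 fold change was 0.17 for the CD90+/CD133+ fraction (limma adjusted p = 0.212) and 0.24 for the CD90+/CD133- fraction (0.145). DHODH, the mitochondrial dehydrogenase, changed by 0.05 in the CD90+/CD133+ fraction and -0.11 in the CD90+/CD133- fraction, and passed in neither. UMPS, which closes the route to UMP, was at 845, 756, 692, 634 and 620.0 in CD90+/CD133+ cells, 854, 714, 617, 591 and 489 in CD90+/CD133- cells and 1062, 892, 855, 809 and 689.6 in CD90-/CD133- cells. The fractions overlapped, and in each of the 5 numbers both CD90+ arrays were below the CD90- array. UMPS was lower with the block (-0.28 for the CD90+/CD133+ fraction, limma adjusted p = 0.00711, and -0.41 for the CD90+/CD133- fraction, adjusted p = 0.0041) and did not pass without it (adjusted p = 0.186 for the CD90+/CD133+ fraction and 0.13 for the CD90+/CD133- fraction). CTPS1, which makes CTP, changed by -0.34 in the CD90+/CD133+ fraction, where it passed with the block (adjusted p = 0.0421), and by -0.43 in the CD90+/CD133- fraction, where it did not (0.0528) but passed with the label code as a block (0.0365). Its sister gene CTPS2 changed by 0.08 in the CD90+/CD133+ fraction and 0.01 in the CD90+/CD133- fraction.

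**Figure D4:**
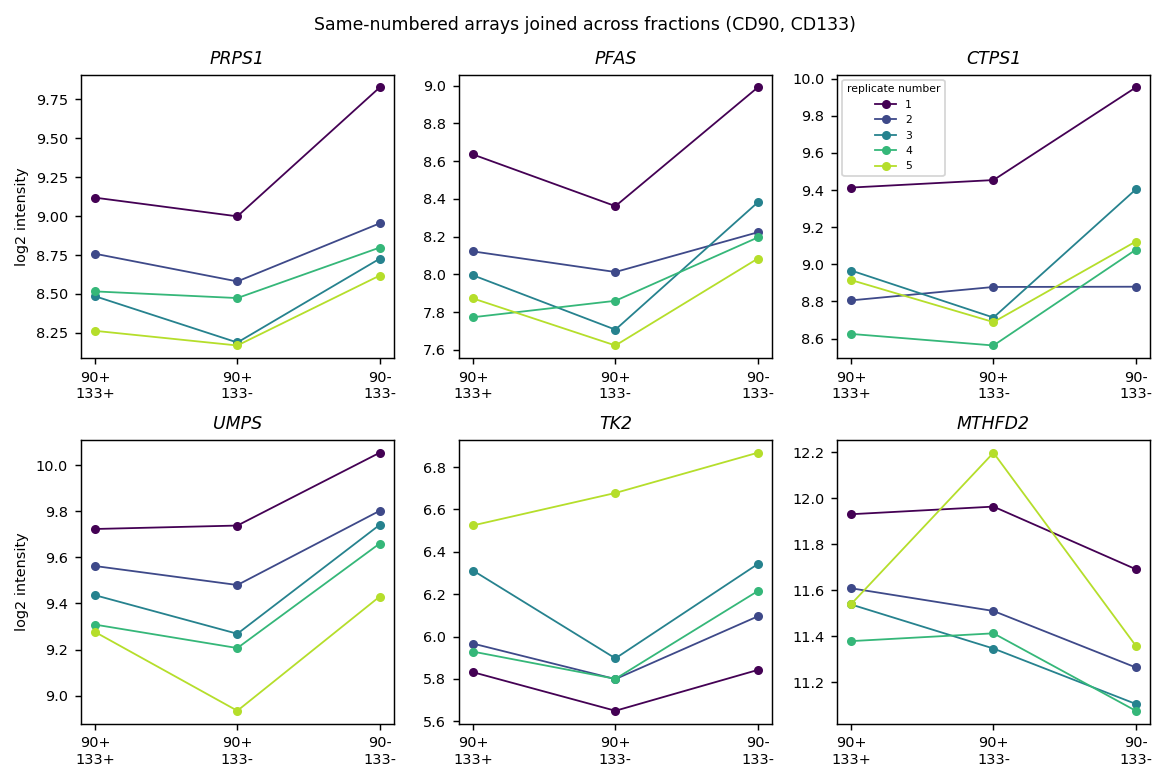
Log2 intensity of 6 members whose call changed in at least 1 comparison with the replicate number as a block, with the arrays of 1 number joined by a line across the fractions CD90+/CD133+, CD90+/CD133- and CD90-/CD133- from left to right. Vertical scales differ and do not start at 0. UMPS and PRPS1 are higher in CD90-/CD133- cells than in either CD90+ fraction in all 5 numbers, while the numbers lie apart.

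Among serine and folate genes, the mitochondrial SHMT2, which splits serine into glycine and a carbon unit, was at 1711, 1901, 2113, 1509 and 1806 in CD90+/CD133+ cells, 1967, 1660.2, 1589, 1512 and 2704 in CD90+/CD133- cells and 1234, 1209, 1232, 1073 and 1071 in CD90-/CD133- cells. The CD90+ arrays were all above the CD90- arrays, with CD90+/CD133- replicate 5 the highest. SHMT2 had a log2 fold change of 0.63 (SE 0.091, limma adjusted p = 0.00165) in CD90+/CD133+ and 0.67 (SE 0.155, adjusted p = 0.0183) in CD90+/CD133- cells, or 0.53 (adjusted p = 0.00548) without that array. With the mean of its probe sets the call in CD90+/CD133- cells was lost (0.58, adjusted p = 0.08), as it was with the label code as a block (0.0617). Cytosolic SHMT1 was dim, at 29.8, 40.8, 38.5, 33.8 and 28.6 in CD90+/CD133+ cells, 33.9, 31.3, 30.5, 45.0 and 29.7 in CD90+/CD133- cells and 28.6, 28.9, 30.5, 23.6 and 22.0 in CD90-/CD133- cells. It changed by 0.36 in the CD90+/CD133+ fraction, passing with the block alone (limma adjusted p = 0.0314, without the block 0.0976), and by 0.35 in the CD90+/CD133- fraction (0.133).

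MTHFD1, the trifunctional folate enzyme of the cytosol, was at 2473, 2739.7, 2726, 2725 and 2928 in CD90+/CD133+ cells, 3214, 3039, 2726, 2909 and 2492 in CD90+/CD133- cells and 2175, 2087, 2600.4, 2030.2 and 2245 in CD90-/CD133- cells. CD90-/CD133- replicate 3 reached into the range of both CD90+ fractions. The log2 fold change was 0.29 for the CD90+/CD133+ fraction (SE 0.0716, limma adjusted p = 0.0211) and 0.37 for the CD90+/CD133- fraction (SE 0.0867, adjusted p = 0.0189). This call was lost in CD90+/CD133- cells with the block (0.0653) and without CD90-/CD133- replicate 2 (0.0509), and in CD90+/CD133+ cells without CD90+/CD133+ replicate 2 (0.0503) or CD90-/CD133- replicate 2 (0.0539). The mitochondrial MTHFD2 ran from 2662 to 3901 in CD90+/CD133+, 2603 to 4695 in CD90+/CD133- and 2158 to 3306 in CD90-/CD133- cells. It changed by 0.39 in the CD90+/CD133- fraction (adjusted p = 0.239) and by 0.30 in the CD90+/CD133+ fraction, where it did not pass (0.191) except with the block (limma adjusted p = 0.00906) or without CD90-/CD133- replicate 1 (0.049). Its close relative MTHFD2L, not a member, changed by 0.54 in the CD90+/CD133+ fraction (adjusted p = 0.0837, with the block 0.0084) and 0.38 in the CD90+/CD133- fraction (0.406). MTHFD1L, the mitochondrial counterpart of MTHFD1, was under 16 on all 15 arrays, so no change could be measured.

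PHGDH, which opens serine synthesis, ran from 422 to 804 in CD90+/CD133+, 410.5 to 703 in CD90+/CD133- and 476 to 851 in CD90-/CD133- cells, with changes of 0.12 in the CD90+/CD133+ fraction (adjusted p = 0.904) and -0.15 in the CD90+/CD133- fraction (0.785). PSPH, which releases serine in the last step, ran from 121 to 236 in CD90+/CD133+, 145 to 467 in CD90+/CD133- and 239.9 to 310.0 in CD90-/CD133- cells. It was lower in CD90+/CD133+ cells by -0.73 (SE 0.184, limma adjusted p = 0.0238), a call lost without CD90+/CD133+ replicate 4 or CD90-/CD133- replicates 2 or 4 (adjusted p of 0.0578 to 0.0584), or with all 3 fractions in 1 fit (0.0901). Its change in CD90+/CD133- cells was -0.38 (adjusted p = 0.489), and -0.66 (adjusted p = 0.0111) without replicate 5 of that fraction, whose value of 467 was the highest of all arrays.

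By the methods' threshold of 1.5-fold, HPRT1, APRT, SHMT2 and PPAT were higher and ADA, RRM1 and TK1 lower in CD90+/CD133- cells, where 6.5% of all genes were higher and 6.47% lower. Without replicate 5 of that fraction, SHMT2 (0.53), PPAT (0.55) and TK1 (-0.41) were under this threshold and PSPH (-0.66) was past it. For CD90+/CD133+ cells it was HPRT1, APRT, TYMS and SHMT2 that were higher and ADA, PSPH and RRM1 that were lower, where 5.86% of all genes were higher and 6.6% lower. Other probe sets of the called members mostly moved the same way. Of the other probe sets above 16 on every array, 17 of 18 did in CD90+/CD133+ cells, the exception being 1 of GMPS, and 8 of these passed the test. In CD90+/CD133- cells 9 of 9 did, and 6 passed.

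The promoters of members that moved are printed for the letters they share. RefSeq windows of 300 bases (250 before the start and 50 after it, GRCh38.p14) were found for 29 members and searched on both strands. The window of PAICS belongs to a gene model that starts 25108 bases from that of PPAT, and it held none of the letters searched. The E-box CACGTG, the site bound by MYC and related factors, was in 6 of 29 windows (20.7%) and in 7.43% of 27305 windows of all genes. Of the members with it, ATIC and DHODH were not called, and MTHFD1L was under 16 on every array. Of the members called higher in either CD90+ fraction, HPRT1, APRT, PAICS, TYMS and RRM2 had windows without it, and IMPDH2 and SHMT2 had no window. PPAT, DCK and MTHFD1 held it and were higher in CD90+ cells. The 250 bases before the start of these 3 are given 5′ to 3′ on the gene's strand, at chr4:56435616-56435865 (minus), chr4:70993399-70993648 (plus) and chr14:64388103-64388352 (plus), with the E-box CACGTG, the E2F letters TTCCCGC and the CCAAT box in capitals on either strand:
PPAT: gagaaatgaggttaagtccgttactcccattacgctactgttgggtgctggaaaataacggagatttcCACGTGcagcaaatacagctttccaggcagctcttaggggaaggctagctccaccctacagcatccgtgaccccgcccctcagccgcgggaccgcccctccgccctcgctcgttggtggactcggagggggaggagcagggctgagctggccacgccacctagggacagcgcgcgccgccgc
DCK: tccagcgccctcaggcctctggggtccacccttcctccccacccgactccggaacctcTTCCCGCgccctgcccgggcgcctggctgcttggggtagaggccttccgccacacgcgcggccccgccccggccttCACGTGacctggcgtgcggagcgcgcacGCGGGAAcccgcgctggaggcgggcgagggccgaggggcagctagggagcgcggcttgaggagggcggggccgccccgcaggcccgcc
MTHFD1: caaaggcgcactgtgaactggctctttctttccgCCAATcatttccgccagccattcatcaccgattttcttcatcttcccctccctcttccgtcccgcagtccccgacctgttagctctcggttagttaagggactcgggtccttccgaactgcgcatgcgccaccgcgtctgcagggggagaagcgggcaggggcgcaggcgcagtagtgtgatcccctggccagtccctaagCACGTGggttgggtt

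The E2F letters (TTGGCGC or TTCCCGC) were in 5 of 29 windows (17.2%), those of DCK, PRPS1, PRPS2, RRM1 and TYMS, and in 9.33% of all windows. These genes moved in both directions: DCK and TYMS were called higher, RRM1 and PRPS2 lower. The stretches of RRM1 (chr11:4094435-4094684, plus), PRPS2 (chrX:12791162-12791411, plus) and TYMS (chr18:657403-657652, plus) follow, marked in the same way:
RRM1: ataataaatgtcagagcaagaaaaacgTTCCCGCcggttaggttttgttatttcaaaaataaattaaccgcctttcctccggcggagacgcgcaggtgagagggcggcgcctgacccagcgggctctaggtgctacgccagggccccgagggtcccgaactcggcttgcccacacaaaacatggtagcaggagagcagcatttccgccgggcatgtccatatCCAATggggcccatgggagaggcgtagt
PRPS2: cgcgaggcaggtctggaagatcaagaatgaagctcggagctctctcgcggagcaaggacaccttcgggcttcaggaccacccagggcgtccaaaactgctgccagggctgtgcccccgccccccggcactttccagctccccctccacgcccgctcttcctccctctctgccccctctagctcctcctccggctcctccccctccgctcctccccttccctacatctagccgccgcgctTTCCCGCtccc
TYMS: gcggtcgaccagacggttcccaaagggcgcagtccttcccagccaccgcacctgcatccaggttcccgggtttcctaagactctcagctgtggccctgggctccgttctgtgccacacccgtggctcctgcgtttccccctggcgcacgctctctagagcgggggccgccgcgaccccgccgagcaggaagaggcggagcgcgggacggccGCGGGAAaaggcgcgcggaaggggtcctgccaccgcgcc

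The E2F letters lie near the start in PRPS2, at position -11, and far from it in RRM1, at -223. CCAAT was in 37.9% of the members' windows and 35.7% of all windows. The amino acid response core TGATGNA was in 13.8% and 10.2%, and the HIF core ACGTG, which lies inside the E-box, in 34.5% and 21.6%. A match in these letters is not a measured binding site.

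The 30 nearest bright genes of each member on its chromosome were set beside it. Of the 11 called members, 7 had a neighbour median of their own sign in CD90+/CD133- cells, and 12 of 16 had one in CD90+/CD133+ cells. Members not called also had one in CD90+/CD133- cells, among them PFAS, PRPS1, TK1 and TYMS, while others, such as GMPS and UMPS, did not. The counts alone thus do not set called members apart. Of all bright genes, 31.3% were called in CD90+/CD133- cells. PPAT and PAICS lie next to each other on chromosome 4, and the median log2 fold change of the 30 nearest bright genes was 0.32 above that of all bright genes in CD90+/CD133- cells, where PPAT was at 0.65 and PAICS at 0.48 on the same scale. The largest neighbour shift in CD90+/CD133- cells was around IMPDH1 on chromosome 7, a member that did not pass (0.17): its neighbours had a median of 0.54, with 18 of 30 called. RRM2 on chromosome 2, not called either, was at 0.21 among neighbours with a median of 0.30. Around RRM1 on chromosome 11 that median was -0.45, with 16 of 30 neighbours called and RRM1 at -0.75. Around ADA on chromosome 20 it was -0.34, with ADA at -1.34. Around TYMS on chromosome 18 it was 0.42 in CD90+/CD133+ cells, with TYMS at 0.75. HPRT1 (chromosome X, neighbours -0.02), APRT (chromosome 16, -0.12), IMPDH2 (chromosome 3, -0.14) and SHMT2 (chromosome 12, 0.07) had neighbour medians closer to 0 in CD90+/CD133- cells. A median near 0 does not mean that the neighbours did not move: 17 of the 30 around HPRT1 were called, and 15 were above the median of all bright genes. PRPS2 fell in a stretch of chromosome X whose neighbours had a median of 0.27. The part of the surroundings in the members' changes was not tested.

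**Figure D5:**
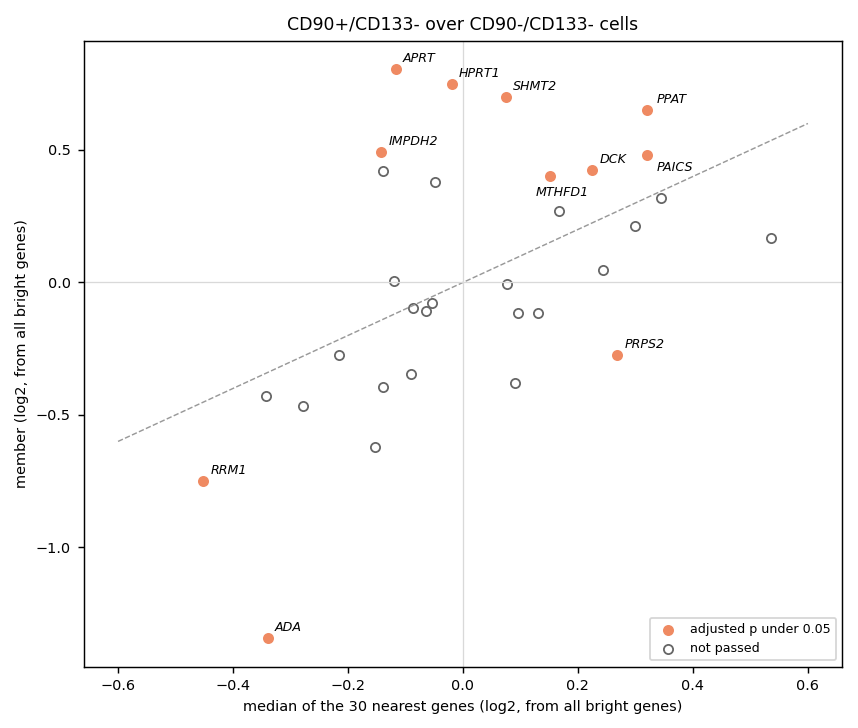
Each point is 1 of 32 members in CD90+/CD133- over CD90-/CD133- cells, with the median log2 fold change of its 30 nearest bright genes on the horizontal axis and its own on the vertical axis, both taken from the median of all bright genes. The dashed line marks equal values, and filled points passed an adjusted p of 0.05. RRM1 and ADA lie at the lower left, PPAT and PAICS at the upper right, HPRT1, APRT, IMPDH2 and SHMT2 high at neighbour medians near 0, and IMPDH1, open, farthest to the right.

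Among 21 measured folate and one-carbon genes outside the members, 0 were higher and 2 lower in CD90+/CD133- cells by limma: GLDC of the glycine cleavage system (-0.98, adjusted p = 0.000624) and MTR, the methionine synthase (-0.61, adjusted p = 0.000133). Of these genes, 2 were higher with the block, and without CD90+/CD133- replicate 5 there were 2 higher and 4 lower. Lower in CD90+/CD133+ cells were GLDC (-0.48), MTR (-0.62) and its reductase MTRR (-0.34). Among 23 nucleotide kinases and suppliers of deoxynucleotides, 2 were higher and 6 lower in CD90+/CD133- cells, the largest changes being those of NME4 (-0.81), AK3 (-0.77), DGUOK, the mitochondrial deoxyguanosine kinase (-0.73), and AK5 (-0.64). The CD90+/CD133+ cells had 3 higher, among them ADK, the adenosine kinase (0.52), and 5 lower, led by AK3 (-0.98). The higher count in CD90+/CD133- cells was 0 without replicate 5 of that fraction. Of all genes, 9.08% were higher and 9.88% lower in CD90+/CD133- cells (12% and 13.6% with the block), and 9.57% and 10.8% in CD90+/CD133+ cells. The counts without replicate 5 have no such share beside them.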

How the data were processed

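Biotin-labelled RNA of 15 sorted samples was hybridised to whole-genome expression arrays (GeneChip Human Genome U133 Plus 2.0). Per probe set, the deposited values are intensities on a linear scale that the authors normalized by the cross-correlation method; the software that summarised the probes is not given in the sources used here, and the lowest deposited value is 5. The number of arrays, not a depth, limits the precision.

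The deposited intensities were kept, set to at least 16 and turned to log2. Of 54675 probe sets, 41097 name 1 gene in the platform annotation, 1801 name more than 1, and 11777 have no gene in it and stay unnamed here. Each gene was represented by its single-gene probe set with the highest mean over 15 arrays. Each pair of fractions was fitted with limma 3.58.1 in R 4.3.3 (lmFit, eBayes, 2-sided, adjusted over 19775 genes), and the fit was tested on simulated data. Figures, promoter letters and chromosome order used Python 3.11.15 and RefSeq tables of GRCh38.p14; 41037 of 41091 probe sets had a gene number in them.

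The members and lists were chosen with earlier results of these data known. Values by array are given for the 14 members with the smallest adjusted p in CD90+/CD133- against CD90-/CD133- cells among those called in any comparison, with or without a block, and for GMPS, RRM2 and TYMS, added after their values were seen. Other members are given by range, and up to 4 called genes of each other list by size of change.

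Arrays of 1 number mostly deviated together from their group means (correlations of 0.20 to 0.79, 0.21 to 0.77 and 0.37 to 0.85 in the 3 comparisons). Arrays of different numbers had means of -0.10, -0.11 and -0.12 and reached 0.19, 0.23 and 0.38, in the same order. In both comparisons of CD90+/CD133+ arrays this was above the lowest value of a shared number. The numbers were taken to pair the arrays in the blocked fit, while the main calls used no block. Blocked values stand where they change the call of a member, and not every list count is given with the block. Alternatives were median centring, quantile normalization, the brightest probe set over the arrays compared, the mean of a gene's probe sets, floors of 1 and 64, and bright genes alone. Others were an intensity trend, a block on the replicate number or on the label code (shared by replicates 4 and 5), and all fractions in 1 fit. A t-test, which the methods name but not for the arrays, other fold rules, and each array or number left out were also used. List and 1.5-fold counts without CD90+/CD133- replicate 5, and list counts with the block, were added after the data were seen.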

Additional observations from a re-analysis of the deposited data

Results flagged for a closer look

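In 9 of 96 groups of 5 arrays, 1 array lay far from the other 4 of its fraction by Dixon's ratio; chance flags about 1 in 20 groups. CD90+/CD133- replicate 5 gave 4 of the 9, with RRM1 at 1060.3 (others 1756 to 2012), TK1 at 644 (1422 to 1622), TYMS at 1715 (2661 to 3017) and TK2 at 102 (50.2 to 59.6). The first 3 were low and TK2 was high.

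The other 5 were all on replicate 1 of a fraction. ADSL was high on CD90+/CD133- replicate 1, at 1176 against 786 to 878. On CD90+/CD133+ replicate 1, IMPDH2 was low at 3152 against 3564 to 3678, and PHGDH was low at 422 against 695 to 804. On CD90-/CD133- replicate 1, PRPS1 was high at 907 against 393 to 496, and RRM2 was high at 4549 against 3006 to 3317.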

How the results depend on the processing

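Of 2766 values of single members under the alternatives, 2494 kept their direction and side of the threshold, 82 lost a call and 38 gained one. Another 68, of 17 members, turned their sign, 0 of them called with or without the change, and 84 had no direction, the change being 0 on at least 1 side. In CD90+/CD133- cells, with 8 higher and 3 lower members, the counts ran from 2 to 9 and from 1 to 5 with an array or a number left out. Leaving out number 2 gave 2 higher and 1 lower, number 3 gave 1 lower, number 4 gave 3 higher, and CD90+/CD133- replicate 5 gave 5 lower; leaving out a number also leaves 4 arrays a fraction. With the replicate block, and with the label code as a block, 7 were lower, and 5 were by the t-test before adjustment. Of the 11 calls, 3 (HPRT1, APRT and ADA) were kept with any array or number left out, and 10 with any array left out. In CD90+/CD133+ cells, with 10 higher and 6 lower, the counts ran from 6 to 11 and from 3 to 6; numbers 2 or 4 left out gave 6 higher, and CD90-/CD133- replicate 2, CD90+/CD133+ replicate 4 or numbers 3 or 5 left out gave 3 lower. The block gave 10 lower there, and 8 of the 16 calls were kept throughout. Between CD90+/CD133+ and CD90+/CD133- cells the t-test gave 1 higher and 1 lower before adjustment. A 2-fold threshold in place of 1.5-fold gave 0 higher and 1 lower (ADA) in each CD90+ fraction, and 2 were past 1.5-fold higher in CD90+/CD133- cells without replicate 5. Of the other lists in CD90+/CD133- cells, the kinases had 1 higher gene with the block and 0 without replicate 5, the regulators 2 lower with the block, the folate list 2 higher with the block, and 2 higher and 4 lower without replicate 5, and the S phase list 3 higher and 2 lower without it. With the replicate block, the folate list had 2 higher and 6 lower in CD90+/CD133+ cells, where 13% and 15.2% of all genes were. The genes that break down, recover or carry nucleotides had 3 higher and 9 lower with it in CD90+/CD133- cells (12% and 13.6% of all genes). No share of all genes is set beside the counts without replicate 5. Further calls of members changed by the replicate block are given with their genes. The cause of these shifts was not tested, and 5 arrays a fraction limit what small changes could be seen.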

Other observations

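Of 29 measured genes outside the members that break down, recover or carry nucleotides, 2 were higher and 6 lower in CD90+/CD133- cells (called by limma at an adjusted p under 0.05): GMPR, which turns GMP back to IMP (1.01), and NT5C2, a cytosolic nucleotidase (0.85), were higher, and XDH, the xanthine dehydrogenase (-1.58), and NT5E, the surface nucleotidase CD73 (-1.03), led the lower genes. In CD90+/CD133+ cells 4 were higher and 7 lower, with XDH at -1.57, GMPR at 1.01, GDA, the guanine deaminase, at -0.80 and AMPD2, an AMP deaminase, at -0.79. Of all genes, 9.08% were higher and 9.88% lower in CD90+/CD133- cells, and 9.57% and 10.8% in CD90+/CD133+ cells.

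Of 11 regulators of these pathways, 2 were higher and 1 lower in each CD90+ fraction, beside the shares of all genes just given. MYCL, a MYC family gene, changed by 0.71 in the CD90+/CD133+ fraction and 0.95 in the CD90+/CD133- fraction. E2F3 changed by 0.56 in the CD90+/CD133+ fraction and 0.64 in the CD90+/CD133- fraction, and TFDP1, the partner of E2F factors, by -0.86 in the CD90+/CD133+ fraction and -0.83 in the CD90+/CD133- fraction.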
